A study of Mus musculus with 16 samples.

Results

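Zfp609, Smarca5, Mbnl1, Fbxw7, Ankrd17, Rtn4, Slc8a1, Man1a2, Rhobtb3 and Zkscan1 are 10 mouse genes known as hosts of circular RNAs, out of 21938 protein-coding genes on the nuclear chromosomes. They were chosen by name, and their peaks were all those that overlapped, by at least 1 bp, a gene body of the GENCODE M21 annotation (genome build GRCm38) or the 1000 bp on either side of it. These windows held 57 peaks. DNA:RNA hybrid immunoprecipitation sequencing had been applied by the study to NIH/3T3 cells, which are fibroblasts of mouse embryo origin. The wild-type (WT) cells were compared with cells in which Xpo4, the gene of exportin 4, a nuclear export receptor, had been knocked out by CRISPR-Cas9 (KO). Both copies of Xpo4 carry the same edit in that line, so KO stands for 1 edited line, and nothing in the labels says that the replicates came from separate cultures. In every group the DNA had been cut with MseI, DdeI, AluI and MboI, mixed with E. coli DNA and precipitated with the antibody S9.6. DNA incubated with RNase R, an exonuclease of linear RNA, is called RNase R+ and DNA incubated in buffer alone RNase R-. Each of KO RNase R-, KO RNase R+, WT RNase R- and WT RNase R+ had 2 replicates and so 2 peak lists, 8 in all. The 8 input samples were not analysed here.

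A circular RNA forms when the spliceosome joins the end of an exon back to the start of the same or an earlier exon, so that the RNA has no free end. Such RNAs resist exonucleases, most are exported to the cytoplasm, and exportin 4 belongs to the proteins that carry them. An R-loop is a stretch of RNA paired with one DNA strand while the other strand is displaced. RNase R removes linear RNA, so the study takes peaks left after it as R-loops made with circular RNA. The genes described here give rise to abundant circular RNAs in other tissues and cells, and no value in the peak lists measures the circular RNAs themselves.

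The 57 peaks merged into 33 loci. Of these loci, 5 were called in 3 or more of the 8 lists. The sequences of 3 of the 5, in Fbxw7, Ankrd17 and Zkscan1, are shown, while the other two lie in intron 2 of Slc8a1 and one of those was called in 5 lists, the most of any locus. The sequences are the reference sequence of GRCm38, read 5' to 3' on the strand of the gene, at most 300 bases around the highest summit. Ankrd17 lies on the minus strand, and Fbxw7 and Zkscan1 on the plus strand. Capitals mark every unbroken stretch of 20 or more bases made only of A and G, or only of C and T.
Fbxw7 intron 2, chr3:84957865-84958122: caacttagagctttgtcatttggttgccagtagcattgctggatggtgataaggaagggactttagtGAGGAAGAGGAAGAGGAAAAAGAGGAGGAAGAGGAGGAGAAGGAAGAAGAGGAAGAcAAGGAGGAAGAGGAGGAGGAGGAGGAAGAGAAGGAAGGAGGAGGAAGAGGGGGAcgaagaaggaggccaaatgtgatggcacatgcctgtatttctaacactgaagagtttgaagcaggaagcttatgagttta
Ankrd17 exon of a retained-intron transcript, chr5:90365210-90365509: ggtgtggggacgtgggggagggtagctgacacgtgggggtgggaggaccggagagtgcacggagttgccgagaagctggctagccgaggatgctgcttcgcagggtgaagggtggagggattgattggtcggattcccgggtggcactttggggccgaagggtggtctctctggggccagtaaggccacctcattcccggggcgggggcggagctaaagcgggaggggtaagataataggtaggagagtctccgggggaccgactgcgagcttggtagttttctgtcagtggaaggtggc
Zkscan1 exon 6, chr5:138100594-138100857: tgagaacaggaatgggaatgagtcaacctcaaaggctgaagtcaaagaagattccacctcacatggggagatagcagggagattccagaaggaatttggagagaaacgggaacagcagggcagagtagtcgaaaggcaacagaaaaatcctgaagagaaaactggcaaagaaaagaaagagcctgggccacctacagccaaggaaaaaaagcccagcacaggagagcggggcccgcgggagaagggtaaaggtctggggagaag

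The Fbxw7 locus held a pair of neighbouring A and G stretches, the longer of 56 bases, and 42.6% of its bases are in capitals. The Ankrd17 and Zkscan1 sequences held no such stretch. On the gene strand G outnumbered C in all 5 loci called in 3 or more lists, with a GC skew, which is G minus C over G plus C, of 0.64 in Fbxw7, 0.27 in Ankrd17, 0.30 in Zkscan1 and 0.93 and 0.40 in the other two, both in intron 2 of Slc8a1.

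In KO RNase R-, replicates 1 and 2 gave 25 and 21 peaks over the host genes. In KO RNase R+ they gave 4 and 4, in WT RNase R- 1 and 2, and in WT RNase R+ 0 and 0. The mean was 23 ± 2.83 peaks in KO RNase R- (SD, n = 2) against 1.5 ± 0.707 in WT RNase R- (SD, n = 2). With RNase R it was 4 ± 0 in KO (SD, n = 2) against 0 in both WT lists. The KO lists lay above the WT lists under both treatments. The lists as a whole differed in the same direction, with 26219 and 32031 peaks in KO RNase R-, 6372 and 5996 in KO RNase R+, 3885 and 2171 in WT RNase R- and 271 and 352 in WT RNase R+. The lists hold no read counts. By the read totals that the study states, the WT RNase R- libraries were shallower than the KO RNase R- libraries, while those of WT and KO RNase R+ were alike in depth. The lowest background that MACS2 had assumed in a list, counted in fragments over a position, was 0.843 to 0.924 in the KO libraries and 0.425 to 0.558 in the WT libraries. This background was thus lower in WT under both treatments and did not follow the stated depth with RNase R. Without RNase R, the gap between KO and WT was wider in the uniquely mapped reads that the study states than in the background. When KO heights were scaled down to the background of the WT library with their number, 18 and 15 peaks remained in the KO RNase R- lists and 1 and 4 in the KO RNase R+ lists.

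**Figure D1:**
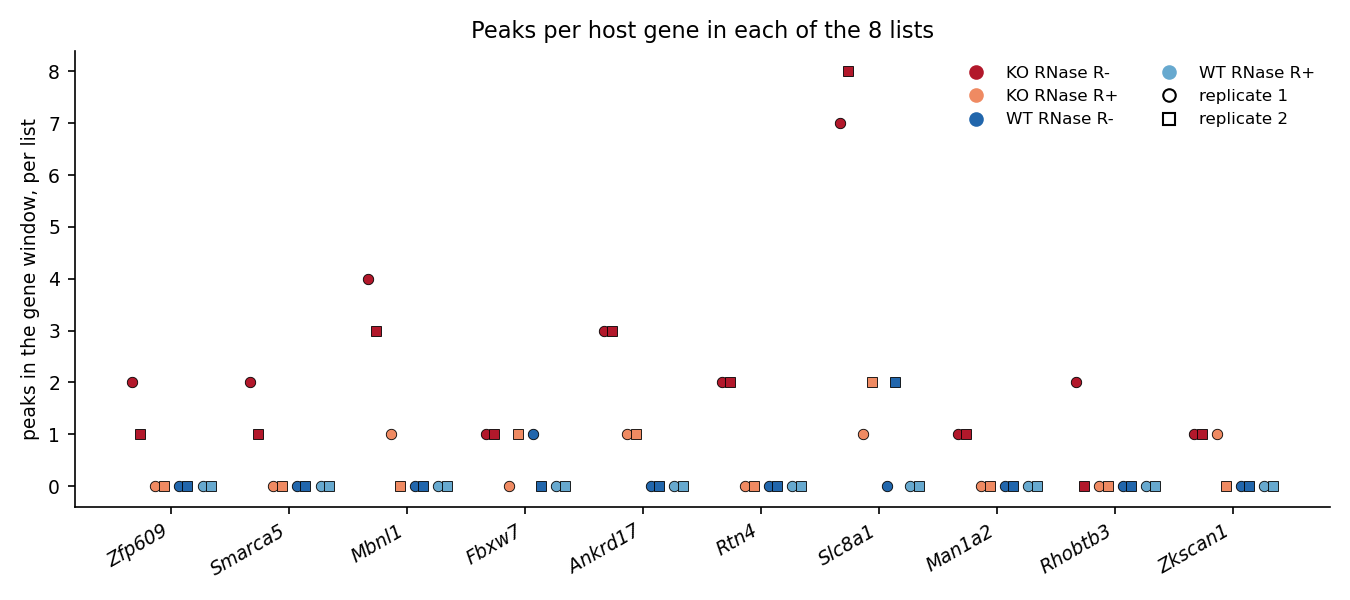
Number of peaks in the window of each host gene (gene body and 1000 bp on either side) in each of the 8 lists; colours are the 4 groups, circles replicate 1 and squares replicate 2. Slc8a1 stands highest in KO RNase R- with 7 and 8 peaks, and all WT RNase R+ points lie at 0.

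All 10 genes had a peak in at least 1 KO RNase R- list, against 43.4% of all protein-coding genes and 64% of the 8979 protein-coding genes within the host genes' length range of 22.7 to 365 kb. In both KO RNase R- lists 9 of 10 genes had a peak, against 26.5% of all protein-coding genes and 40.1% in the length range. With RNase R, 5 of 10 had a KO peak (Mbnl1, Fbxw7, Ankrd17, Slc8a1 and Zkscan1), against 15.3% and 22.9%. In WT RNase R- the peaks lay in Fbxw7 and Slc8a1, 2 of 10 genes against 6.91% and 11.5%, and in WT RNase R+ no host gene had a peak, against 0.67% and 1.08%. Long genes hold more peaks, and the median length was 129 kb for the host genes, 51.2 kb for the genes in the length range and 17.4 kb for all protein-coding genes. The median host gene held 3 peaks over both KO RNase R- lists, against 1 in the length range and 0 over all protein-coding genes.

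The number expected from length was the number of nuclear peaks in a list times the share of the genome that the 10 windows cover, 1293.5 kb or 0.0475%, with the mean peak width added to each window. It was 12.4 and 15.2 peaks for the KO RNase R- lists. The observed 25 peaks of replicate 1 were 2.01 times the expected number, with a 95% exact Poisson interval of 1.30 to 2.97. The 21 peaks of replicate 2 were 1.38 times it, with an interval of 0.855 to 2.11 that includes 1. These intervals cover counting error only and treat peaks as independent. In KO RNase R+ the ratios were 1.33 and 1.42 on 4 peaks each, with intervals of 0.363 to 3.42 and 0.387 to 3.63. The WT RNase R- ratios were 0.548 and 1.97 on 1 and 2 peaks. In WT RNase R+ 0.124 and 0.163 peaks were expected, so that a count of 0 was not distinguishable from the expected number, and the interval of each list reached 3.69 peaks. Per 100 kb of gene and list, the host genes held 1.81 KO RNase R- peaks, against 1.36 over all protein-coding genes and 1.26 in the length range.

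**Figure D2:**
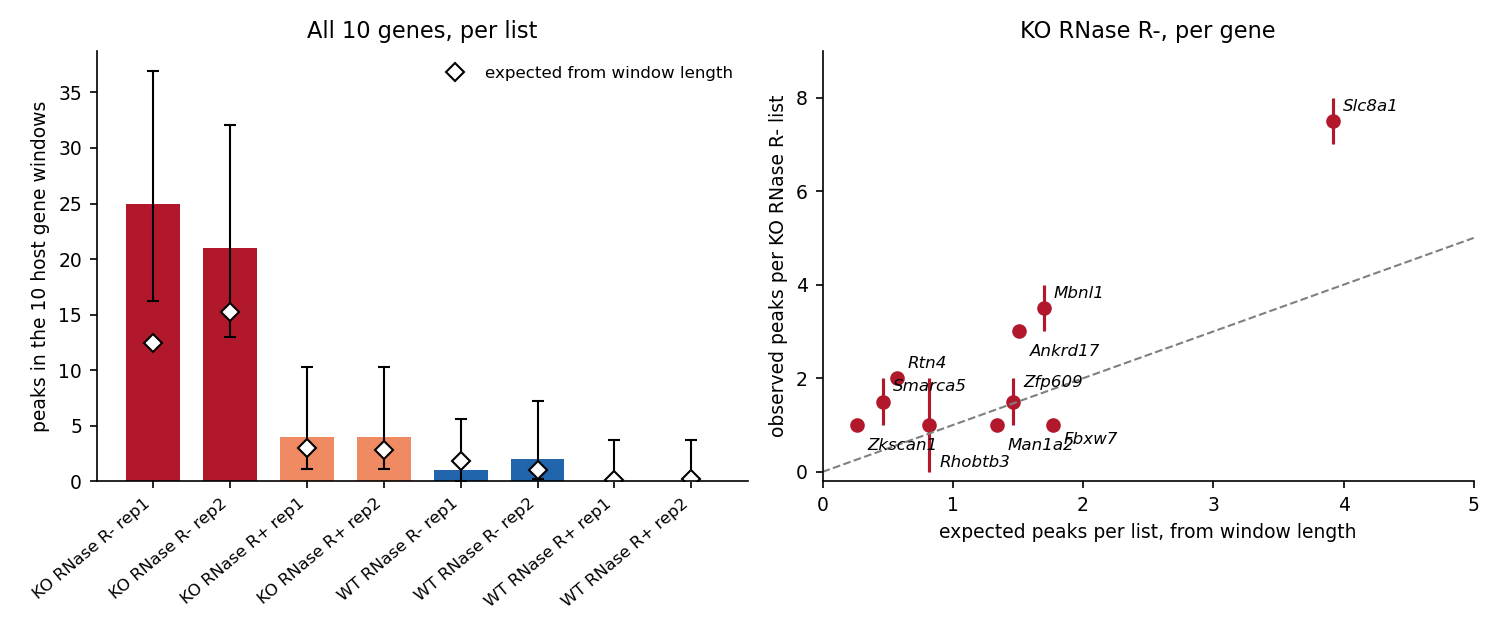
Left, peaks in the 10 host gene windows in each list (bars, with 95% exact Poisson intervals) and the number expected from window length (diamonds). Right, mean observed peaks per KO RNase R- list against the expected number for each gene, with vertical lines from the lower to the higher replicate and a dashed line where both are equal. Fbxw7 and Man1a2 lie below the line, and Slc8a1, with 7.5 peaks against 3.92 expected, lies farthest above it.

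Among the genes of nuclear regulators, Mbnl1, a splicing regulator of the muscleblind family that also binds its own circular RNA, held 4 and 3 KO RNase R- peaks, 1 and 0 KO RNase R+ peaks and none in WT. Its KO RNase R- mean was 2.06 times the 1.70 expected per list. Zfp609, a zinc finger protein, held 2 and 1 KO RNase R- peaks and none elsewhere, at 1.02 times the 1.47 expected. Smarca5, the ATPase of the ISWI chromatin remodelling complexes, also held 2 and 1 KO RNase R- peaks and none elsewhere. Its gene is shorter, 41.0 kb against 135 kb, so the ratio to the expected number was 3.25. Zkscan1, a zinc finger protein with a KRAB and a SCAN domain and the shortest gene of the 10 at 22.7 kb, held 1 and 1 KO RNase R- peaks, 1 and 0 KO RNase R+ peaks and none in WT. Its ratio in KO RNase R- was 3.75, and it rests on 1 locus.

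Of the genes of protein turnover and scaffolding, Ankrd17, which encodes a large ankyrin repeat protein, held 3 and 3 KO RNase R- peaks, 1 and 1 KO RNase R+ peaks and none in WT, 1.99 times the expected number in KO RNase R-. Fbxw7, the substrate-recognition subunit of a ubiquitin ligase, held 1 and 1 KO RNase R- peaks, 0 and 1 KO RNase R+ peaks and 1 and 0 WT RNase R- peaks. Its KO and WT counts overlapped, and its KO RNase R- count was 0.564 times the 1.77 expected.

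Among the genes of membranes and secretion, Slc8a1, the sodium-calcium exchanger of the plasma membrane and the longest gene of the 10 at 365 kb, held 7 and 8 KO RNase R- peaks. It held 1 and 2 peaks in KO RNase R+, 0 and 2 in WT RNase R- and none in WT RNase R+, and its KO RNase R- ratio to the expected number was 1.91. It was the 1 gene whose KO RNase R- counts did not overlap those of any other host gene. Rtn4, a reticulon that shapes the endoplasmic reticulum, held 2 and 2 KO RNase R- peaks and none elsewhere, 3.50 times the expected number. Man1a2, a Golgi mannosidase that trims N-linked sugar chains, held 1 and 1, and Rhobtb3 held 2 and 0. Neither had a peak in another group. Below Slc8a1 the counts of neighbouring genes overlapped or differed by 1 peak, from Mbnl1 and Ankrd17 down to Man1a2 and Rhobtb3.

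Both KO lists lay above both WT lists in 8 of 10 host genes without RNase R, all but Fbxw7 and Rhobtb3, against 24.2% of all protein-coding genes and 35.8% in the length range. With RNase R this held for 2 of 10, Ankrd17 and Slc8a1, against 5.64% and 7.6%. With 2 lists against 2, an exact permutation test cannot go below p = 0.33, which was the two-sided value of each gene without overlap. Permuting the labels within each treatment over all 8 lists, Ankrd17 and Slc8a1 reached p = 0.0556 in the exact two-sided test, which is the smallest value it can give. After Benjamini-Hochberg adjustment over the 10037 protein-coding genes with a peak, that value was 0.536 in the same exact permutation test, and no host gene passed 0.05. Ankrd17 had a mean difference of 2 peaks per list, higher in 4 of 4 KO lists than in any WT list of its treatment, and Slc8a1 had a mean difference of 4 peaks per list. The other 8 genes had adjusted values of 0.604 to 1 in that exact test.

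In KO, the host genes held 46 peaks over both lists without RNase R and 8 with it. Both RNase R- lists lay above both RNase R+ lists in 7 of 10 host genes, against 19.7% of all protein-coding genes and 30.2% in the length range, and the exact two-sided permutation p of each was 0.33, the smallest possible. Fbxw7, Rhobtb3 and Zkscan1 overlapped. By locus, 32 of the 33 were called in a KO RNase R- list and 6 in a KO RNase R+ list. The overlap was 5 loci, 15.6% of the KO RNase R- loci, and over all 20064 KO RNase R- regions in protein-coding gene windows the share was 15.1%. Both shares were close to each other. The sixth RNase R+ locus lay in Mbnl1 at chr3:60480893-60481263 and was called in KO RNase R+ replicate 1 alone, with a fold of 5.20.

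Of the 32 KO RNase R- loci, 14 were called in both replicates, which is 43.75%, against 34.4% of all such regions in protein-coding gene windows. In KO RNase R+ 2 of 6 loci were called in both replicates, one in Ankrd17 and the other in Slc8a1 at chr17:81473044-81473395. No WT locus was called in both replicates. The 3 WT RNase R- loci, one in Fbxw7 and 2 in intron 2 of Slc8a1, were all called in both KO RNase R- lists as well.

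The fold of a peak in these lists is the height of the summit divided by the local background, after 1 is added to both. Folds ranged from 4.09 to 27.0 and summit heights from 8 to 51 fragments, with a median height of 14. The highest locus was in Ankrd17 at chr5:90365157-90366016, 860 bp wide. Its folds were 27.0 and 26.4 in KO RNase R- and 16.4 and 15.9 in KO RNase R+. These correspond to 51, 49, 36 and 29 fragments, so all 4 KO lists called it, with lower values after RNase R, and neither WT treatment did. The next highest peak of any host gene had a fold of 12.5, in intron 2 of Slc8a1 in KO RNase R- replicate 1.

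At the Slc8a1 locus called in the most lists, 5 of 8, chr17:81473044-81473395, the folds were 8.68 and 8.78 in KO RNase R-, 5.01 and 6.82 in KO RNase R+ and 7.39 in WT RNase R- replicate 2. The WT value lay between the KO values of both treatments. At the neighbouring Slc8a1 locus, chr17:81469967-81470260, the folds were 12.5 and 11.3 in KO RNase R- against 6.13 in WT RNase R- replicate 2, with 22 and 27 fragments against 9. At the Fbxw7 locus, chr3:84957865-84958122, the folds were 5.63 and 11.6 in KO RNase R-, 9.19 in KO RNase R+ replicate 2 and 8.79 in WT RNase R- replicate 1. The WT height of 12 fragments there equalled that of KO replicate 1. At Zkscan1, chr5:138100594-138100857, the folds were 8.08 and 9.18 in KO RNase R- and 7.28 in KO RNase R+ replicate 1. A fold is set by the local level and the depth of its own library, so values of different libraries are given side by side without a test.

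**Figure D3:**
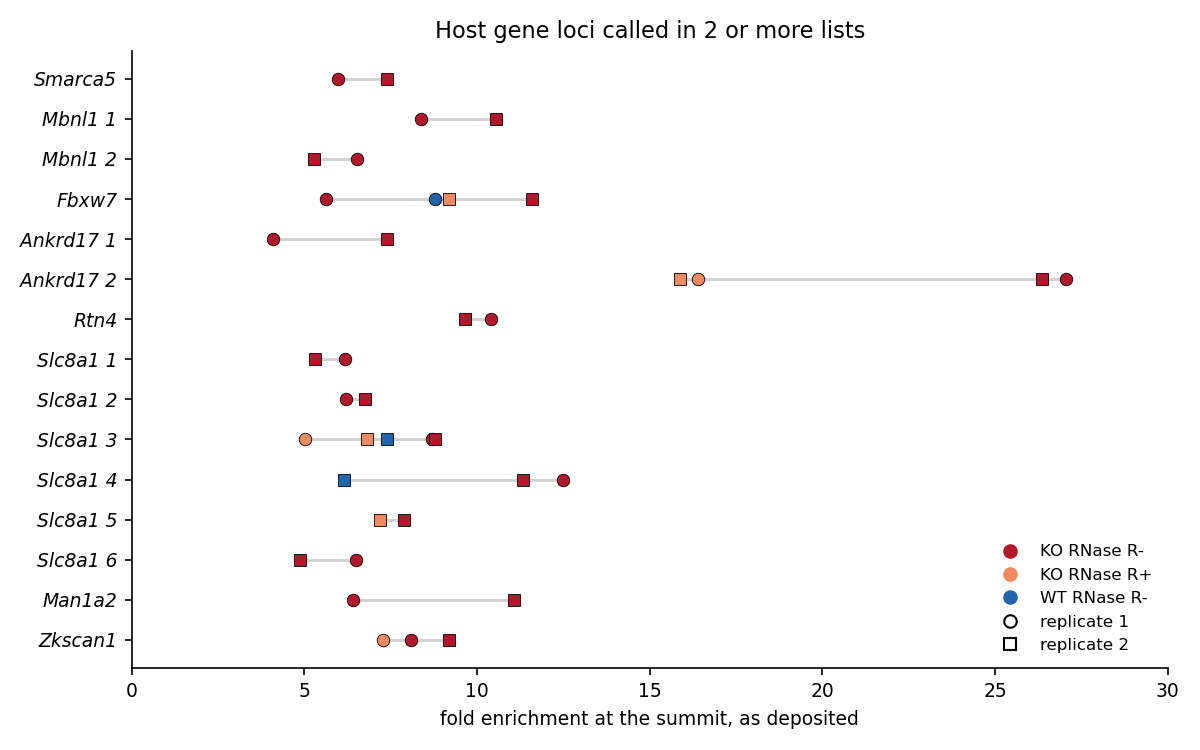
Fold enrichment at the summit, as deposited, for the 15 host gene loci called in 2 or more lists, ordered by gene and from the 5' to the 3' end of it; colours are groups, circles replicate 1 and squares replicate 2. The second Ankrd17 locus stands apart, with its KO RNase R- folds of 27.0 and 26.4 to the right of its KO RNase R+ folds of 16.4 and 15.9.

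Most host gene peaks lay in introns, as did most of the sequence searched. Introns made up 88.8% of the 10 windows, exons of any transcript 9.70% and flanks 1.55%. In KO RNase R- the summit lay in an intron for 18 of 25 peaks in replicate 1 and 15 of the 20 peaks with their summit inside the window in replicate 2, that is 72% and 75%, against 80.7% and 80.9% over all protein-coding genes. Exons held 4 of 25 and 3 of 20 summits, 16% and 15%, against 12.8% and 12.6%. Within 1000 bp of an annotated transcript start lay 6 of 25 and 4 of 20, 24% and 20%, against 16.0% in either list. These differences from the general share rest on 1 to 3 peaks per list.

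By locus, 25 of 33 were intronic, 4 exonic, 2 in upstream and 2 in downstream flanks. The exonic loci were in Ankrd17, Rtn4 and Zkscan1. The highest summit of the strong Ankrd17 locus lay 825 bp after a transcript start, in an exon found in a retained-intron transcript alone. By protein-coding transcripts it lay in intron 1, which is 61601 bp long. Another Ankrd17 locus, chr5:90366425-90366860, was called in both KO RNase R- lists with its summit 106 bp upstream of the gene start. A further one, called in KO RNase R- replicate 2, had its summit 1088 bp upstream and overlapped the gene model Gm9958. In Rtn4, chr11:29693169-29693487 was called in both KO RNase R- lists, with folds of 10.4 and 9.64, in the coding part of a first exon 377 bp after the transcript start. A second Rtn4 locus in replicate 1 lay 47 bp after another transcript start. The Zkscan1 locus lay in the coding part of its last exon, exon 6 of 6, 8127 bp from the nearest transcript start. Peaks carry no strand and no RNA sequence, so they do not show which RNA was paired there or whether it came from the host gene.

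Introns of the principal transcripts that held a locus were 980 to 202215 bp long. In Slc8a1, 5 of its 10 loci lay in intron 2, which is 202215 bp long, and the 2 called in 3 or more lists were 27588 and 24532 bp from the nearest exon. The Slc8a1 locus at the far end, chr17:81372069-81372328, lay past the 3' end of the gene and overlapped the gene model AC122399.1. In Mbnl1, 3 loci lay in intron 1 of 27332 bp, and the strongest, chr3:60508313-60508719, had folds of 8.38 and 10.5 in KO RNase R-. The single locus of Man1a2 lay in intron 1 of 28286 bp, 10658 bp from an exon, with folds of 6.41 and 11.1 in KO RNase R-. The single locus of Fbxw7 lay in intron 2 of 3546 bp, 511 bp from an exon, and overlapped the gene model Gm37240. In Smarca5, chr8:80718446-80718685 in intron 11 was called in both KO RNase R- lists with folds of 5.97 and 7.38. The 3 loci of Zfp609 and the 2 of Rhobtb3 were each called in 1 list, with folds of 5.33 to 7.60.

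**Figure D4:**
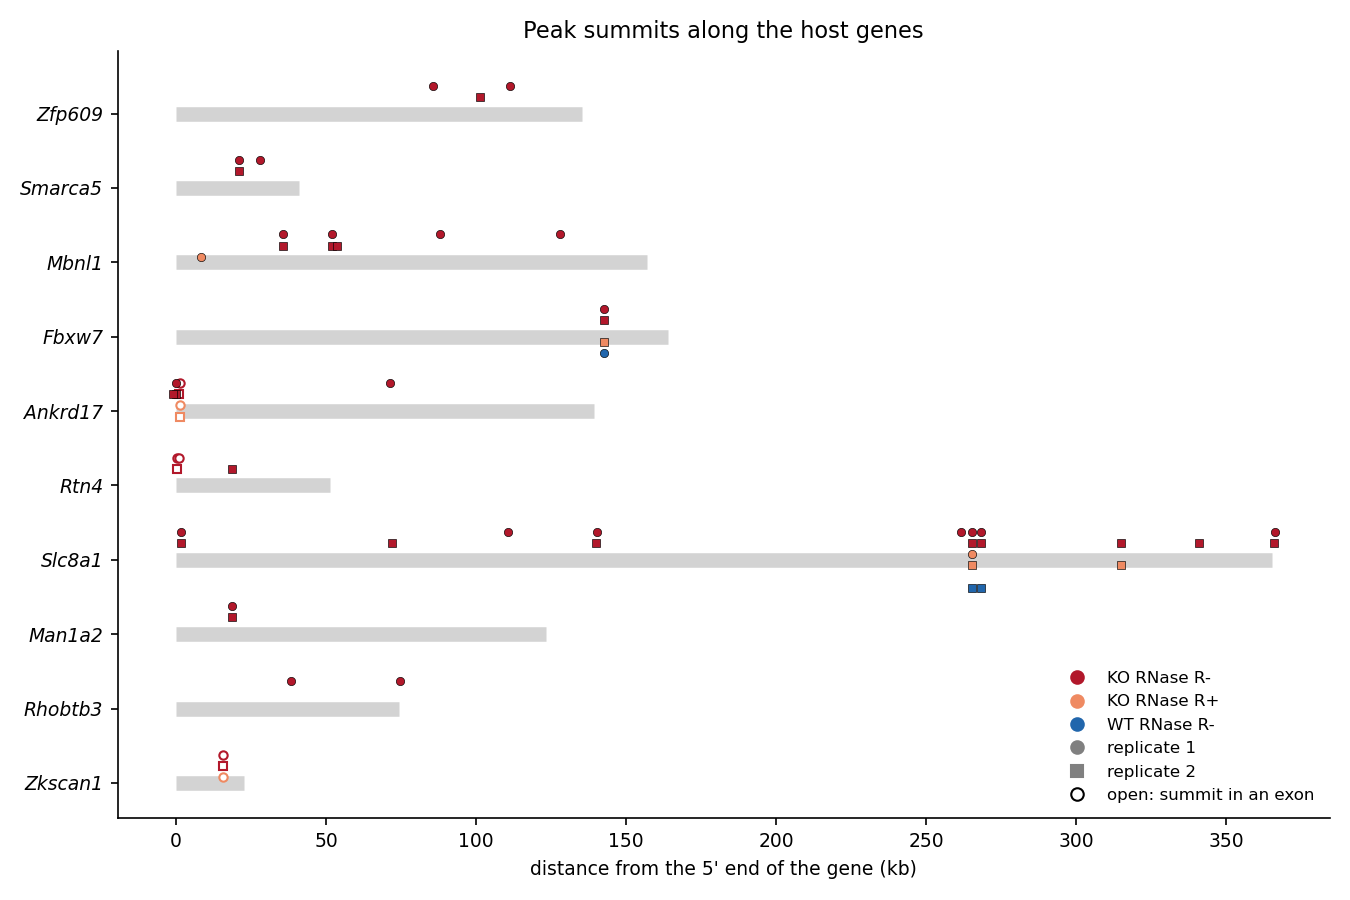
Summits of the 57 host gene peaks by distance from the 5' end of the gene in kb; grey bars are gene bodies, colours are groups, circles replicate 1 and squares replicate 2, and open symbols mark a summit in an exon. Ankrd17 and Rtn4 have summits at the gene start, while those of Slc8a1 run over its whole length of 365 kb.

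The loci were also compared in base composition. A stretch of 20 or more bases made only of A and G, or only of C and T, was held by 17 of 33 loci and by 32 of the 57 peaks, 56.1%. Over all 35294 peaks in protein-coding gene windows the share was 55.8%, close to that of the host genes. Tiles of 250 bp held such a stretch in 6.73% of the host gene windows and 6.59% of all protein-coding gene windows. All 10 Slc8a1 loci held one, 8 of them A and G on the gene strand and 2 C and T. The host gene share thus rests in large part on Slc8a1, and no share was computed without that gene. Elsewhere, Fbxw7, Man1a2, Zfp609, Smarca5, Rhobtb3 and Rtn4 had loci with such a stretch, and Mbnl1, Ankrd17 and Zkscan1 had none. At 194 bases of C and T, the Smarca5 locus chr8:80718446-80718685 held the longest stretch outside Slc8a1, with a GC skew of -0.86.

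G outnumbered C on the gene strand in 21 of 33 loci. In the KO RNase R- lists this held for 17 of 25 and 13 of 21 host gene peaks, with a median skew of 0.27 and 0.30. Of all peaks whose genes lie on 1 strand, it held for 58.7% and 57.6%, with medians of 0.12 and 0.10. Slc8a1 gave 7 and 8 of the host gene peaks, with positive skew except for -0.68 in replicate 1 and -0.37 in replicate 2. The replicate 2 peaks of the other host genes had skews of both signs, from -0.86 in Smarca5 to 0.66 in Fbxw7. The host gene skew thus rests in part on Slc8a1, and no median was computed without that gene. The GC content of host gene peaks had a median of 46.5% and 46.8% in KO RNase R-, against 45.0% and 44.9% over all protein-coding gene windows. It ranged from 27.6% in Slc8a1 to 72.8% in Ankrd17. The host gene windows as a whole had a GC content of 39.7%.

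**Figure D5:**
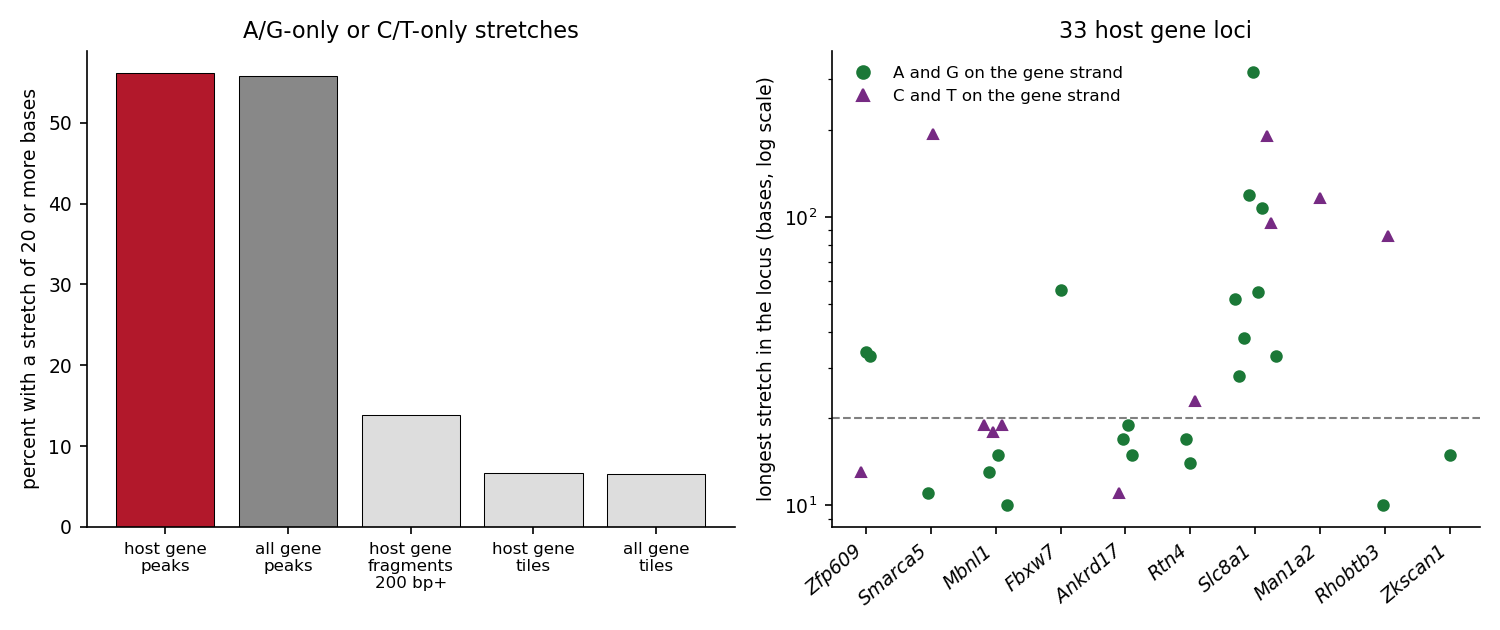
Left, percent of host gene peaks, of all peaks in protein-coding gene windows, of restriction fragments of 200 bp or longer in the host gene windows, and of 250-bp tiles that hold a stretch of 20 or more bases of only A and G or only C and T. Right, longest such stretch in each of the 33 loci by gene (log scale; dashed line at 20 bases), with all 10 Slc8a1 loci above the line.

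The outline of many peaks followed the restriction cuts. Of the 57 peaks, 40 had both edges within 5 bp of a cut site of the 4 enzymes and 33 had no cut inside, with widths of 213 to 859 bp and a median of 264 bp. In the KO RNase R- lists 80% and 71.4% of the host gene peaks had both edges at a cut, against 53.9% and 55.1% in all protein-coding gene windows. The summit lay in a fragment of 200 bp or longer in 41 of 57 peaks, whereas such fragments made up 11.3% of the host gene windows. The median fragment of the 10 genes was 32 to 36 bp long. Of the 569 fragments of 200 bp or longer in the host gene windows, 13.9% held an A and G or C and T stretch, against 14.7% in the genome. Between 68% and 76.2% of the host gene summits in the KO RNase R- lists lay in such fragments, against 70.7% and 71.9% of the summits in all protein-coding gene windows. With the expected number taken from peaks per fragment of 200 bp or longer, the mean ratio of observed to expected host gene peaks was 1.97 in KO RNase R- and 1.60 in KO RNase R+, against 1.70 and 1.38 from length. The measures of base composition and of fragments were chosen after the data were seen, and their part in the peak counts was not tested.

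The 3 protein-coding genes closest to Slc8a1 in peak number over the 8 lists, by the sum of absolute differences, were Gm20696, Hpse2 and Gm49337, each at a sum of 3 peaks. They held 7 and 8, 7 and 8, and 6 and 7 peaks in KO RNase R-, over gene lengths of 409, 602 and 126 kb. Xpo4 itself, the gene knocked out, held 1 and 2 peaks in KO RNase R- and none in the other lists, which does not check the knockout.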

How the data were processed

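DRIP-seq (DNA:RNA hybrid immunoprecipitation sequencing) peak lists of 8 immunoprecipitated samples were used. Per the study's methods, the authors aligned paired reads to GRCm38 and ran MACS2 on single replicates at a q of 0.001. SAMtools 1.1 is named in the submitters' processing notes, and the control library is not given in the sources used here. The deposited lists give a fold (a ratio), −log10 p and q values and a score, which is an integer form of the −log10 q and was not used. Positions and widths were also taken from the deposited columns. The lists hold no read counts, so summit heights were recovered as the whole number that satisfies both the deposited fold and p under a Poisson distribution, within 0.001 for all 57 peaks. Calling each replicate alone makes the number of peaks depend on depth.

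Peaks were counted per GENCODE M21 gene with flanks of 1000 bp in Python 3.11.15 with numpy 2.4.6, pandas 2.3.3 and scipy 1.17.1. Loci are overlapping peaks merged over the 8 lists. Introns are numbered in the principal protein-coding transcript, and exon means an exon of any transcript. The exact stratified permutation test (36 arrangements) was run on every protein-coding gene with a peak. Counting, height recovery and this test were tested on simulated data. Replicate lists shared 0 identical rows in each group. Genes named are the 10 hosts, 5 hosts imaged by the study, 11 factors, genes overlapping a host window and the 3 closest to Slc8a1. The members and lists were chosen with earlier results of these data known. Reference sequence came from the RefSeq copy of GRCm38, and some items are not reported here. Alternatives changed the flank, thresholds, overlap rule, replicates, depth, density and transcripts.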

Additional observations from a re-analysis of the deposited data

How the results depend on the processing

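As reported, the 10 host genes together held 21.5 more peaks per list in KO than in WT without RNase R and 4 more with it, 19 more without than with RNase R in KO and 1.5 more in WT. The mean ratio of observed to expected peaks was 1.70 in KO RNase R- and 1.38 in KO RNase R+. With every peak that touched a window counted, 71.7% of KO RNase R- summits were intronic, as a mean of both lists. No value changed sign under an alternative. In all, 39 values for the 10 genes together moved by more than the replicate spread or, for counts of genes, by over 1.5 times, and 77 did not; for single genes 25 moved and 215 did not. No cause of a move was tested.

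Without flanks the intronic share was 77.0%. With flanks of 5000 bp it was 61.0%, the differences were 25 (KO minus WT, RNase R-) and 23 (RNase R- minus RNase R+, KO), and the KO RNase R+ ratio was 1.30. At a −log10 q of at least 5, the RNase R+ difference was 3.5 and the intronic share 73.1%. At a fold of at least 10 the differences were 4.5, 1, 3.5 and 0 in the order above, 6 host genes had a KO RNase R- peak, 1 a KO RNase R+ peak and 0 a WT RNase R- peak, the ratios were 2.53 and 2.78, and the intronic share was 65%. With peaks found in both replicates the differences were 14, 2, 12 and 0, 2 host genes had a KO RNase R+ peak and 0 a WT RNase R- peak, the KO RNase R+ ratio was 1.84 and the intronic share 64.3%. With the KO libraries scaled to the WT background, the KO minus WT differences were 15 and 2.5. The KO RNase R+ ratio was 1.11 from the density of each gene's chromosome, 1.17 from that of protein-coding gene windows and 1.60 from that of long restriction fragments. The KO RNase R- ratio was 1.43 from the density of each gene's chromosome and 1.44 from that of protein-coding gene windows. Both were lower than the 1.70 from length but within its replicate SD of 0.444. The intronic share was 73.5% with the summit required in the window, 76.1% by protein-coding transcripts and 69.7% when any contact with an exon counted. Without Slc8a1 the KO minus WT differences were 15 and 2.5 and the KO RNase R+ ratio 1.19. The long fragments and the omission of Slc8a1 were chosen after seeing the data.

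Leaving out 1 replicate gave 3 to 4 host genes with a KO RNase R+ peak and 1 to 1 with a WT RNase R- peak, and ratios of 1.38 to 2.01 in KO RNase R-. Replicates share numbers in the labels and nothing else, and the deviations of same-numbered replicates correlated at -0.0825 to 0.0204 over 10037 genes. Taking same-numbered replicates as a block leaves the differences of group means, 21.5, 4, 19 and 1.5, unchanged by construction, so it is no check. No fit was run, and these unchanged values are counted among those that did not move. The exact sign-flip test of 2 pairs cannot go below p = 0.5. With 2 replicates per group no test of a single gene could pass 0.05, and WT RNase R- peaks under the threshold of those shallower libraries were not detectable at this depth. The scaling used the background level, which did not follow the stated read totals with RNase R, so the scaled RNase R+ value is no correction for depth. Without RNase R, the uniquely mapped reads that the study states differed more between KO and WT than the background levels did. The scaled RNase R- value is thus no full correction for depth either.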

Other observations

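Among 5 further genes whose circular RNAs the study imaged, Nfix, a transcription factor, held 4 and 3 KO RNase R- peaks, Specc1, a cytoskeletal protein, 4 and 5, Adarb1, an RNA-editing adenosine deaminase, 1 and 2, Wwc1, a scaffold of the Hippo pathway, 0 and 2, and Hipk3, a nuclear kinase, none. Together they held 9 and 12 peaks against 7.63 expected per list from length, 0 and 2 in KO RNase R+ against 1.61 expected, and 0 in WT. In WT RNase R- 0.784 peaks were expected per list, and in WT RNase R+ 0.0792. In 3 of 5 both KO lists lay above both WT lists without RNase R, against 24.2% of all protein-coding genes. In the host genes' length range, which holds all 5 at 68.0 to 266 kb, the share was 35.8%.

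Of 11 genes that encode factors of circular RNA formation or export, 10 held a KO RNase R- peak, against 43.4% of all protein-coding genes, and 5 a KO RNase R+ peak, against 15.3%. None had a WT peak, against 6.91% of all protein-coding genes in WT RNase R- and 0.67% in WT RNase R+. Only 0.463 and 0.0471 peaks were expected per list there, so the absence of WT peaks was not distinguishable from the expected number. The 11 genes held 15 and 21 KO RNase R- peaks against 4.50 expected per list, and 7 and 5 KO RNase R+ peaks against 0.949 expected. Dhx9, an RNA helicase that unwinds R-loops, held 2 and 2 KO RNase R- peaks, then 2 and 1 KO RNase R+ peaks. In the same order, Qki, annotated as Qk, a splicing factor that promotes circular RNA formation, held 2 and 3, then 1 and 1. Hnrnpl, another splicing factor, held 2 and 2, then 1 and 0. Ddx39b, a helicase of RNA export, held 2 and 4 KO RNase R- peaks and no other, while its paralog Ddx39a, annotated as Ddx39, held 1 and 0. Adar, an RNA-editing enzyme, held none. In 8 of 11 both KO lists lay above both WT lists without RNase R, against the same 24.2%.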
